A study of Homo sapiens with 4 samples.

Results

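The genes described here are 9 targets of p53, namely MDM2, CDKN1A, AEN, GDF15, ZMAT3, SESN1, FDXR, TP53INP1 and GADD45A. They were chosen by name, each symbol stood on 1 of the 59108 rows of the deposited expression table, and all 9 passed the limit on low values (at least 0.5 FPKM in at least 2 libraries). FPKM is the number of fragments per kilobase of transcript, scaled to library size, so that levels of different genes can be set side by side. The study asked how gene expression differs after knockdown of LDHA in B-CPAP, a cell line from a papillary thyroid carcinoma. LDHA encodes the A subunit of lactate dehydrogenase. RNA-Seq was done on 4 libraries of total RNA: 2 of cells labelled shGFP, the control hairpin, and 2 of cells labelled shLDHA. Per the study's methods the LDHA hairpin was delivered by lentivirus and infected cells were selected with puromycin. The sources used here do not tell if libraries with the same hairpin are separate cultures, nor if both shLDHA libraries hold the same hairpin, so p-values measure the spread among these 4 libraries only, which may be technical.

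p53 is a transcription factor that is held at a low level by MDM2, the ubiquitin ligase that marks it for degradation, and MDM2 is itself a target of p53, so the pair forms a feedback loop. After DNA damage or other stress p53 accumulates and binds paired recognition motifs near its targets, whose products stop the cell cycle (CDKN1A, GADD45A), promote cell death (AEN, TP53INP1), act on redox balance and metabolism (SESN1, FDXR), bind RNA (ZMAT3) or leave the cell as a signal (GDF15). B-CPAP cells are known as a p53-mutant line, and most of these genes also have inducers other than p53. The gene of p53 itself is not reported here.

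Stretches near the starts of these genes that resemble the DNA motif bound by p53 are shown first, so that their letters can be read beside the direction of each gene. RefSeq promoter windows on GRCh38.p14, from 250 bases before to 50 bases after a transcript start, were found for 7 of the 9 genes. They were searched for 2 adjacent copies of the p53 consensus motif of 10 bases, with the CNNG core of both copies intact and at most 3 mismatches over the other 16 positions. The consensus is its own reverse complement, so 1 strand covers both. This tolerance was set after the sequences had been seen. The 7 genes had 14 windows, against 35116 windows for all 27305 genes with a window, and a gene with more windows has more chances of a match. A match was found in 5 of the 7 genes, against 1.37% of those 27305 genes. Each is written 5′ to 3′ on the strand of its gene, with the 20 bases of the paired motif in capitals.
MDM2: gagctGGTCAAGTTCAGACACGTTCcgaaa
AEN: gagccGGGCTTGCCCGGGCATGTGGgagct
GDF15: tgcacAGCCATGCCCGGGCAAGAACtc
SESN1: cgtctGGACAAGTCTCCACAAGTCAgaaat
FDXR: ggcccGGGCAGGAGCGGGCTTGCCCtgcgg

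The MDM2 stretch lies at chr12:68808918-68808947 on the plus strand, in 1 of 4 start windows of the gene, with 2 mismatches. The AEN stretch at chr15:88621301-88621330 on the plus strand also has 2 mismatches, and its capitals end 15 bases before the start. GDF15 has its match inside the transcribed part, 28 to 47 bases after the start, at chr19:18386181-18386207 on the plus strand. The SESN1 match, on the minus strand at chr6:109009013-109009042, and the FDXR match, on the minus strand at chr17:74872991-74873020, have 3 mismatches, as does that of GDF15. No match was found in the windows of CDKN1A and ZMAT3, which says only that these letters are not in those windows. At most 2 mismatches were met by 0.359% of all genes with a window, MDM2 and AEN among them. A match is a description of the letters and no measure of binding.

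LDHA was lower in both knockdown libraries. It was listed at 1186.37 and 1183.12 FPKM in the shGFP libraries and 175.53 and 167.80 FPKM in the shLDHA libraries, a log2 fold change of -2.44 (SE 0.08, limma adjusted p = 0.0076). Of the thyroid markers PAX8 (65.66 to 99.37 FPKM), FOXE1 and HHEX were present, with log2 fold changes of 0.01 (limma adjusted p = 0.97), -0.77 (0.029) and -0.70 (0.035), TG was at most 0.12 FPKM, and NKX2-1 and TSHR were listed at 0. KRT8 and KRT18 were high, whereas CDH1, EPCAM and KRT19 were at most 0.2 FPKM. The immune markers PTPRC, CD3E and MS4A1, the endothelial markers CDH5 and KDR and the fibroblast marker DCN were listed at 0. CD68 was between 29.9 and 45.11 FPKM and CD14 between 0.45 and 1.91 FPKM, both higher in the shLDHA libraries, and PDGFRB, between 6.57 and 16.95 FPKM, was lower in them. Of 6 listed fibroblast markers 2 passed the limit on low values, with log2 fold changes of -0.76 and 0.48, of which 1 fell and 1 did not pass. The part of these in the results was not tested.

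After LDHA knockdown the 9 target genes did not move as 1 group. CDKN1A and FDXR rose, AEN and GDF15 fell, and MDM2, ZMAT3, SESN1, TP53INP1 and GADD45A did not pass the test (limma on log2 of TMM-scaled FPKM plus 0.1, Benjamini-Hochberg adjusted p under 0.05 over 13291 genes). TMM scaling divides each library by a factor that brings the middle of its genes to the level of the other libraries. Of all genes tested 31.0% passed, 18.1% higher and 12.9% lower, and with 9 genes the count of 4 is not set apart from this background. The median log2 fold change of the 9 genes was -0.49, against 0.00 over all genes. For 6 genes both shLDHA libraries lay below both shGFP libraries (36.1% of all genes did), for 2 both lay above (36.4%), and for MDM2 the groups overlapped. In bulk RNA fewer cells that express a gene and less of its RNA per cell cannot be told apart.

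Scaling decided part of this picture. With the values as deposited the median over all genes was -0.33 on the log2 scale, 30.2% of genes passed, 6.80% higher and 23.4% lower, and the 9 genes counted 1 risen (FDXR) and 4 fallen (AEN, GDF15, SESN1 and GADD45A). With libraries set to equal totals (TPM) 41.2% of genes passed, 5.87% higher and 35.4% lower, and the 9 genes counted 1 risen (FDXR) and 5 fallen, ZMAT3 with those 4. The groups did not overlap for the same 8 genes as deposited, where 52.8% of all genes were lower and 20.0% higher in this sense. Without shGFP library 1, or without shGFP library 2, 0 of the 13291 genes passed with limma, the lowest adjusted p being 0.14 and 0.13. At an unadjusted p under 0.05, 2095 genes were then higher and 1324 lower without shGFP library 1, and 2241 and 1455 without shGFP library 2. Such a fit takes its spread from the shLDHA pair alone.

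**Figure D1:**
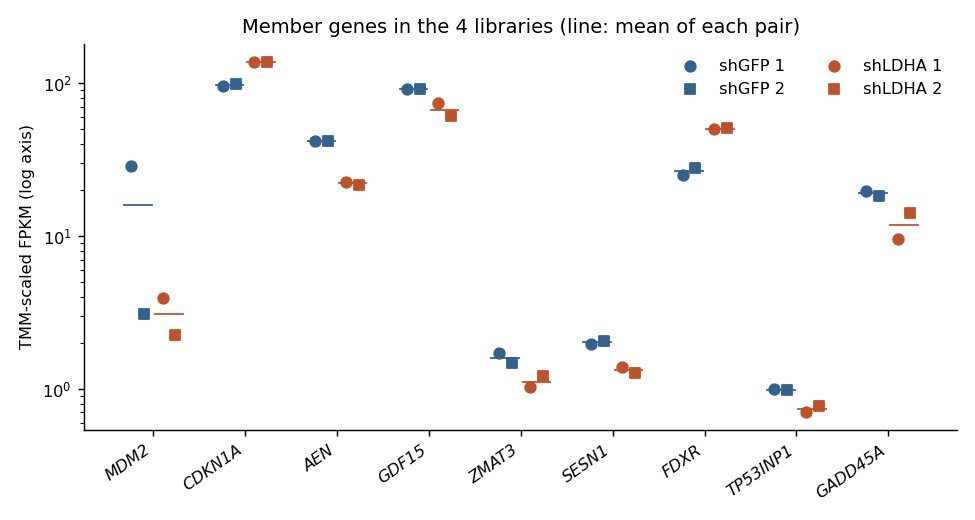
TMM-scaled FPKM of the 9 genes (log axis) in the 4 libraries, shGFP in blue and shLDHA in red, circles for library 1 and squares for library 2, with a line at the mean of each pair. The 2 shGFP libraries sit together for every gene except MDM2, at 28.7 and 3.09 FPKM.

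CDKN1A, GDF15 and AEN had the highest levels of the 9 genes in control cells. Per kilobase and after scaling, the order in the shGFP libraries was CDKN1A at 97.4 ± 2.49 FPKM (SD, n = 2), GDF15 at 91.6 ± 0.228, AEN at 42.1 ± 0.147, FDXR at 26.5 ± 1.82, GADD45A at 19 ± 0.85, MDM2 at 15.9 ± 18.1, SESN1 at 2.01 ± 0.0758, ZMAT3 at 1.6 ± 0.172 and TP53INP1 at 0.986 ± 0.00616. Only MDM2 could not be placed, since its 2 control values spanned those of FDXR and GADD45A. In the shLDHA libraries FDXR (50.5 ± 0.522 FPKM) stood above AEN (22.1 ± 0.851 FPKM), the reverse of their order in the controls, and the remaining order was kept. The 3 genes under 3 FPKM rest on few fragments, about 68 to 130 per library for TP53INP1 by the estimated depth.

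MDM2, the ligase of the feedback loop, varied more between the control libraries than between the groups. On GRCh37 it lies at chr12:69201957-69239324 (plus strand). Deposited values were 32.42 and 3.46 FPKM in shGFP libraries 1 and 2, and 3.77 and 1.86 FPKM in shLDHA libraries 1 and 2. A single library, shGFP 1, stood high, and shGFP 2 lay between the 2 shLDHA libraries. After scaling the control libraries differed 9.02-fold, while the other 8 genes differed at most 1.15-fold between the same 2 libraries. Among 7329 genes whose mean was 5 FPKM or more, 25 differed by at least this much within the control pair, MDM2 included. Within the knockdown pair 53 genes did.

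The fitted log2 fold change of MDM2 was -1.63 (SE 1.11, limma adjusted p = 0.31), and its value depended on that library. Without shGFP library 1 it was -0.05 (adjusted p = 0.95), and without shGFP library 2 it was -3.22 (adjusted p = 0.13). None of the 4 tested genes around MDM2 differed between the control libraries by as much. NUP107 stood at 8.79 FPKM in shGFP library 1 and 11.26 FPKM in shGFP library 2, and CPSF6 at 25.79 and 22.55 FPKM. SLC35E3, also higher in shGFP library 1, had 2.48 and 1.26 FPKM, and CPM, a carboxypeptidase gene on the minus strand whose annotated end overlaps that of MDM2, had 1.63 and 1.77 FPKM. The sources used here do not tell whether reads were counted by strand, so reads of that overlap cannot be assigned to MDM2 or CPM. MDM4, the MDM2 paralog that binds p53 without degrading it by itself, had 2.61 and 1.43 FPKM in the controls against 0.73 and 0.80 FPKM in the shLDHA libraries. Its groups did not overlap, and the change of -0.92 on the log2 scale did not pass (SE 0.36, adjusted p = 0.12).

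**Figure D2:**
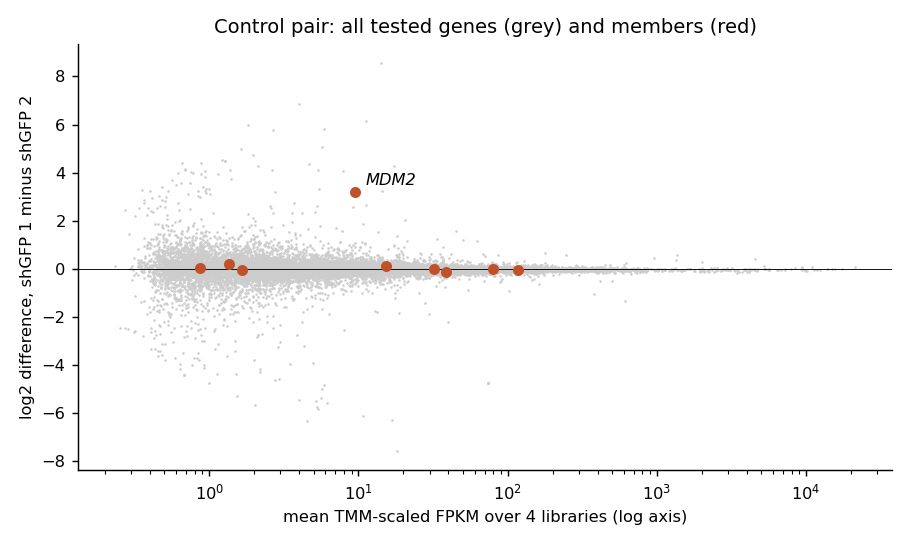
Log2 difference between shGFP library 1 and shGFP library 2 (vertical axis) against the mean TMM-scaled FPKM over the 4 libraries (log axis) for all 13291 tested genes in grey and the 9 target genes in red. MDM2 stands at 3.174 on the log2 scale, and the other 8 genes lie near 0.

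Of the genes of cell cycle arrest CDKN1A rose after TMM scaling, whereas GADD45A was lower but did not pass. CDKN1A, which encodes the cyclin-dependent kinase inhibitor p21, lies on the plus strand of GRCh37 at chr6:36644237-36655114. It had 108.24 and 111.19 FPKM in the shGFP libraries and 130.88 and 114.67 FPKM in the shLDHA libraries as deposited, or 95.7, 99.2, 137 and 139 FPKM after scaling. Both shLDHA libraries were above both controls on either scale. CDKN1A rose 1.42-fold after scaling (log2 0.50, SE 0.07, limma adjusted p = 0.014). The rise was 0.16 on the log2 scale with the values as deposited (adjusted p = 0.34) and 0.02 when libraries were set to equal totals (adjusted p = 0.88), and neither passed. The related inhibitors CDKN1B (p27) and CDKN1C (p57) also rose after scaling, by 0.42 (adjusted p = 0.042) and 0.74 (adjusted p = 0.027) on the log2 scale. On the deposited scale neither passed (0.08, adjusted p = 0.7, and 0.40, adjusted p = 0.097), and with equal totals CDKN1B was at -0.05.

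GADD45A, a stress sensor that binds PCNA and kinases of the growth arrest response, lies on the plus strand at chr1:68150884-68154017 of GRCh37. Its values were 22.21 and 20.66 FPKM in the controls and 9.07 and 11.71 FPKM in the shLDHA libraries. Both shLDHA libraries were lower, and the spread between them was larger than between the controls. The log2 fold change was -0.71 (SE 0.21) and missed the threshold (limma adjusted p = 0.069), whereas it passed with the values as deposited (-1.05, adjusted p = 0.021). Without shLDHA library 1 or shLDHA library 2 it passed, at -0.42 (adjusted p = 0.043) and -1.0 (adjusted p = 0.012), but such a fit takes its spread from the control pair alone, and the 2 values differ. Its paralog GADD45B had 39.38 and 37.9 FPKM in the controls and 37.33 and 29.54 FPKM in the shLDHA libraries, with a log2 change of 0.12 (adjusted p = 0.31) that turned to -0.22 on the deposited scale. GADD45G, the third family member, reached at most 0.21 FPKM and was not tested.

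AEN had the largest fall of the genes that passed. AEN, an exonuclease that degrades DNA in dying cells, lies on the plus strand at chr15:89164568-89175512 of GRCh37. It stood at 47.78 and 47.11 FPKM in the shGFP libraries and at 21.68 and 17.75 FPKM in the shLDHA libraries. The shLDHA level was 0.525 of the control level after scaling (42.1 ± 0.147 against 22.1 ± 0.851 FPKM, SD, n = 2), with a log2 fold change of -0.93 (SE 0.08, limma adjusted p = 0.0077). This call held under every scaling and with length offsets, and was lost only where a control library was left out, at adjusted p = 0.14 without shGFP library 1 and 0.13 without shGFP library 2, with log2 changes of -0.92 and -0.93. Of the exonuclease genes most like AEN, ISG20 rose by 1.25 on the log2 scale (adjusted p = 0.012) and ISG20L2 fell by 0.93 (adjusted p = 0.0077), and both also passed on the deposited scale.

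TP53INP1, a nuclear and autophagy protein that promotes cell death, had the lowest level of the 9 genes. It lies on the minus strand at chr8:95938200-95961606 of GRCh37 and stood at 1.12 and 1.10 FPKM in the controls and 0.67 and 0.64 FPKM in the shLDHA libraries. The groups did not overlap, and the log2 fold change of -0.37 (SE 0.26) did not pass (limma adjusted p = 0.31). TP53INP2, its paralog, rose by 0.57 on the log2 scale (adjusted p = 0.039), from 3.75 and 3.59 FPKM to 4.81 and 3.94 FPKM, but not on the deposited scale (0.24, adjusted p = 0.35).

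ZMAT3, a zinc finger protein that binds RNA and acts on splicing, lies on the minus strand at chr3:178677909-178790003 of GRCh37. It had 1.95 and 1.66 FPKM in the controls and 0.97 and 1.0 FPKM in the shLDHA libraries, without overlap. The log2 fold change of -0.49 (SE 0.23) did not pass (limma adjusted p = 0.17). Among related zinc finger genes ZMAT5 rose by 0.77 on the log2 scale (adjusted p = 0.014) but not on the deposited scale (0.43, adjusted p = 0.11), ZMAT2 stood at 0.05 (adjusted p = 0.83) and turned to -0.29 on the deposited scale, and ZMAT1 and ZMAT4 were listed at 0.

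FDXR had the largest rise of the 9 genes. FDXR, the mitochondrial ferredoxin reductase that feeds electrons to steroid synthesis and to iron-sulfur cluster assembly, lies on the minus strand at chr17:72858619-72869156 of GRCh37. It stood at 28.48 and 31.11 FPKM in the shGFP libraries and at 47.84 and 41.97 FPKM in the shLDHA libraries. Both shLDHA libraries were higher, by 1.91-fold on average after scaling (log2 0.93, SE 0.09, limma adjusted p = 0.0086). The rise also passed with the values as deposited (0.59, adjusted p = 0.033), with equal library totals (0.45, adjusted p = 0.035) and with length offsets (0.68, adjusted p = 0.0094). It did not pass without shGFP library 1 (0.86, adjusted p = 0.14) or shGFP library 2 (1.0, adjusted p = 0.13). The partners that accept its electrons did not pass after TMM scaling alone. FDX1 changed by 0.26 (limma adjusted p = 0.53) and FDX2 by 0.15 (adjusted p = 0.16) on the log2 scale. Both turned negative on the deposited scale (-0.07 and -0.19), and FDX2 passed as a fall with length offsets.

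SESN1, which encodes a sestrin that curbs mTORC1 and aids the repair of oxidised peroxiredoxins, lies on the minus strand at chr6:109305512-109416049 of GRCh37. Its values were 2.21 and 2.31 FPKM in the controls and 1.32 and 1.04 FPKM in the shLDHA libraries. The groups did not overlap. The log2 fold change was -0.57 (SE 0.20, limma adjusted p = 0.091), and it passed on the deposited scale (-0.89, adjusted p = 0.048). SESN2, a paralog that ATF4 also induces, fell by 0.47 (adjusted p = 0.023), from 21.17 and 21.11 FPKM to 13.13 and 10.98 FPKM, and SESN3 was listed at 0.

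GDF15 fell, by a margin close to the threshold. GDF15, a secreted member of the TGF-beta superfamily released under stress, lies on the plus strand at chr19:18485541-18499986 of GRCh37. It had 103.79 and 102.48 FPKM in the controls and 70.68 and 50.23 FPKM in the shLDHA libraries. Both shLDHA libraries were lower and differed from each other more than the controls did. After scaling the means were 91.6 ± 0.228 and 67.4 ± 9.31 FPKM (SD, n = 2), and the fitted fold was 0.733 (log2 -0.45, SE 0.12, limma adjusted p = 0.049). The call was lost with no filter on low values (adjusted p = 0.09), with no variance trend (0.098), with the replicate number as a block (0.055), without shGFP library 1 (0.25) and without shGFP library 2 (0.23). GFRAL, the receptor of GDF15, was listed at 0 in the 4 libraries.

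The 5 genes with a motif match in the sequences above included the risen FDXR, the fallen AEN and GDF15, and MDM2 and SESN1, which did not pass. The 2 genes searched without a match were the risen CDKN1A and ZMAT3, which did not pass.

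**Figure D3:**
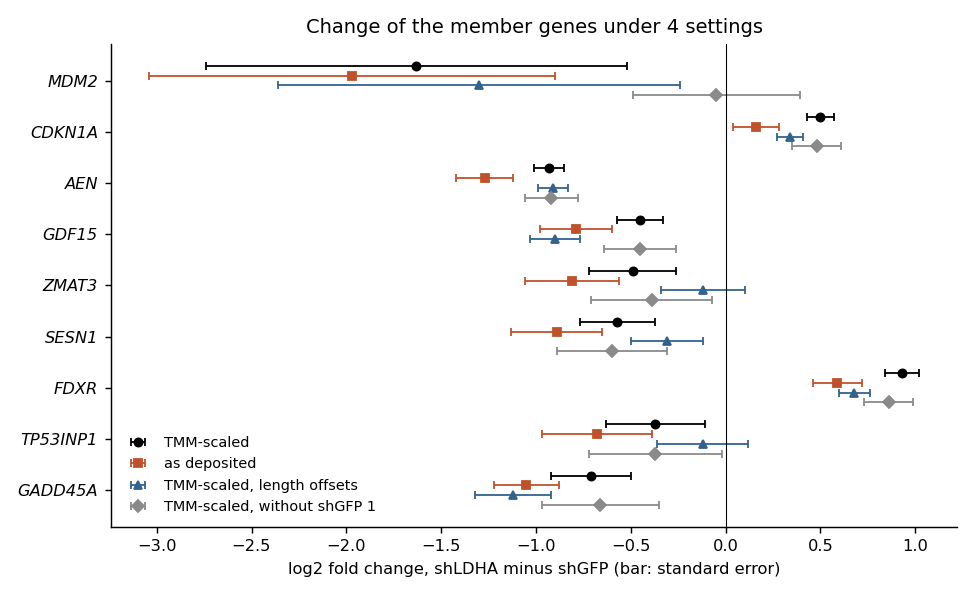
Log2 fold change of the 9 genes, shLDHA minus shGFP, with standard errors as bars, for TMM-scaled values, the values as deposited, TMM-scaled values with length offsets and TMM-scaled values without shGFP library 1. CDKN1A, AEN, GDF15, SESN1, FDXR and GADD45A stay on their side of 0 by more than their standard error in each setting. MDM2 moves from -1.63 to -0.05 without shGFP library 1.

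Changes across the transcriptome ran with transcript length, and this touched the 9 genes. Over 11728 tested genes with a length, Spearman's rho between log2 fold change and length was -0.42, and 0.40 between log2 fold change and GC content. These are descriptions across genes, which share the same 4 libraries. The shortest 10% of transcripts had a median of 0.56 and the longest 10% a median of -0.43 on the log2 scale. What this trend comes from was not tested.

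Beside genes within 1.25-fold of their own length, the target genes stood as follows. AEN, at 3072 bases, had -0.93 where genes of like length had a median of -0.05. GADD45A, at 1352 bases, and GDF15, at 1200 bases, had -0.71 and -0.45 where the medians were 0.33 and 0.39. These 3 genes were thus below the middle of their length class. FDXR, at 1846 bases, had 0.93 against a median of 0.19, and CDKN1A, at 2117 bases, had 0.50 against 0.13. CDKN1A lay within the quartiles of its class (-0.25 to 0.54), and FDXR above those of its own (-0.19 to 0.61). MDM2, at 7490 bases, had -1.63 against -0.36, a value that depended on shGFP library 1. The long transcripts of ZMAT3 (8936 bases, -0.49 against -0.42), TP53INP1 (5605 bases, -0.37 against -0.28) and SESN1 (5664 bases, -0.57 against -0.28) were closer to their length class. With length offsets, which remove a smooth trend on length from each library, GADD45A passed at -1.12 (adjusted p = 0.019), GDF15 was at -0.90 (adjusted p = 0.014) and CDKN1A at 0.34 (adjusted p = 0.023). ZMAT3 and TP53INP1 were then both at -0.12 (adjusted p = 0.71 and 0.73), and SESN1 at -0.31 (adjusted p = 0.26). The 9 genes counted 2 risen and 3 fallen in that fit, against 29.6% of all genes that passed, 16.0% risen and 13.6% fallen.

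**Figure D4:**
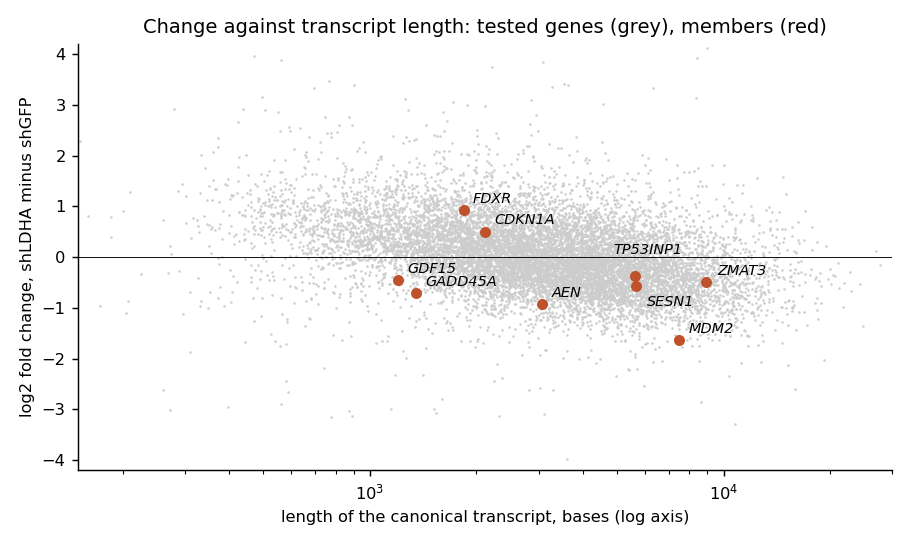
Log2 fold change (shLDHA minus shGFP, TMM-scaled) against the length of the canonical transcript in bases (log axis) for tested genes in grey and the 9 target genes in red, with 12 grey points outside the axes. The grey cloud falls with length, and GDF15 and GADD45A lie below its middle at short length.

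The wider set of p53 targets moved in both directions. Of 97 other target genes 86 were tested, and 23 rose, 17 fell and 46 did not pass, with a median of 0.00 on the log2 scale, equal to that of all genes. On the deposited scale 8 rose and 24 fell. With length offsets 20 rose and 15 fell of 84 tested, against 16.0% and 13.6% of all genes. By role that fit gave 4 risen and 3 fallen of 18 in arrest and repair, and 2 and 5 of 15 in cell death. In metabolism and autophagy 4 rose and 2 fell of 18, and among surface, secreted and other targets 10 and 5 of 33. The split of these other targets by role follows, beside 18.1% risen and 12.9% fallen over all genes. As deposited 6.80% of all genes rose and 23.4% fell, and with equal totals 5.87% rose and 35.4% fell. In that last setting 3 rose and 6 fell of 19 targets in metabolism and autophagy. Among 33 surface, secreted and other targets 4 then rose and 13 fell.

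Of 18 targets in arrest and repair 3 rose and 3 fell (median -0.25). As deposited 1 rose and 5 fell, and with equal totals 0 rose and 8 fell. After TMM scaling the risen were CCNG1 (cyclin G1) at 0.63, RPS27L at 0.93 and PML, the scaffold of nuclear bodies, at 0.61 on the log2 scale. The fallen were PCNA, the sliding clamp of DNA replication, at -0.35, the repressor E2F7 at -0.95 and GTSE1 at -0.61.

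Of 16 cell death targets 5 rose and 5 fell (median 0.00), but 0 rose and 6 fell as deposited (limma) and 0 rose and 7 fell with equal totals. At an unadjusted p under 0.05 the risen were 3 as deposited and 0 with equal totals. BBC3, which encodes the BH3-only protein PUMA, rose from 10.94 and 11.14 FPKM to 13.36 and 13.28 FPKM (log2 0.61, SE 0.11, limma adjusted p = 0.025), and PMAIP1, which encodes the BH3-only protein NOXA, fell from 7.38 and 7.3 to 4.38 and 3.52 FPKM (log2 -0.55, SE 0.12, adjusted p = 0.035). BBC3 did not pass as deposited (0.27, adjusted p = 0.17), whereas PMAIP1 did (-0.89, adjusted p = 0.027). The death receptors of the ligand TRAIL fell, TNFRSF10B from 59.18 and 61.82 to 30.12 and 24.2 FPKM (log2 -0.82, adjusted p = 0.0091) and TNFRSF10A by 0.72 on the log2 scale (adjusted p = 0.02), as did the decoy receptor TNFRSF10D, by 0.57 (adjusted p = 0.034). PHLDA3, an inhibitor of AKT, rose by 0.65, PIDD1, the platform of caspase 2, by 0.78, and TP53I3, a quinone oxidoreductase, by 0.50 on the log2 scale.

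Of 19 targets in metabolism and autophagy 6 rose and 2 fell (median 0.12), against 3 and 4 as deposited. The highest log2 fold change of this list was 1.09, and 0.60 with length offsets. Among the risen were GPX1, a glutathione peroxidase (log2 1.09), SCO2, which delivers copper to cytochrome c oxidase (0.95), DDIT4, an inhibitor of mTORC1 (1.01), and ISCU, the scaffold of iron-sulfur cluster assembly (0.53). The fallen were SESN2 and STEAP3, an iron reductase of endosomes (-0.94). Of 33 surface, secreted and other targets 9 rose and 7 fell (median 0.05), against 4 and 9 as deposited, with FAM98C (1.35), SYTL1 (1.18), TP53I11 (1.10) and PGPEP1 (1.10) among the risen and PTP4A1 (-0.88), TM7SF3 (-0.72), ZNF79 (-0.94) and TRIM32 (-0.54) among the fallen, all as log2 fold changes.

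**Figure D5:**
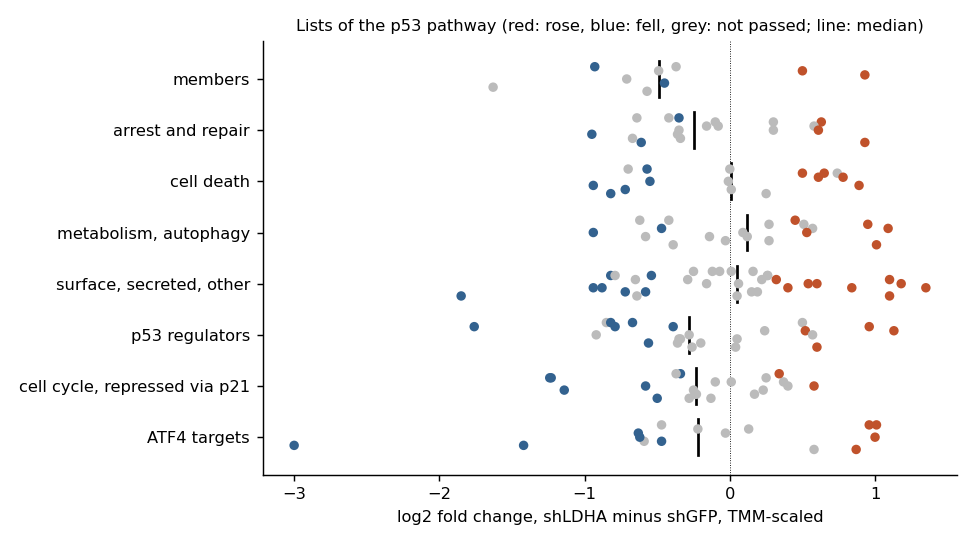
Log2 fold change (shLDHA minus shGFP, TMM-scaled) of the tested genes of 8 lists, red for genes that rose, blue for genes that fell and grey for genes that did not pass, with a black line at each median. The other target genes spread to both sides of 0, with medians from -0.25 to 0.12.

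Genes that act on p53 also split. Of 23 tested regulators 4 rose and 6 fell (median -0.28), against 2 and 7 as deposited and 5 and 4 with length offsets. With equal totals 2 rose and 10 fell. Over all genes 18.1% rose and 12.9% fell after TMM scaling, and 6.80% and 23.4% as deposited. With length offsets these shares were 16.0% and 13.6%, and with equal totals 5.87% and 35.4%. CDKN2A, the locus of p16 and of the MDM2 inhibitor ARF, rose from 415.83 and 431.39 FPKM to 734.11 and 725.55 FPKM (log2 1.13, SE 0.10, limma adjusted p = 0.0078). The table does not separate the transcripts of p16 and ARF. RCHY1, a ubiquitin ligase for p53, rose by 0.96 (adjusted p = 0.0093), PPP1R13L (iASPP, an inhibitor of p53) by 0.60 (adjusted p = 0.024) and the acetyltransferase KAT5 by 0.52 (adjusted p = 0.015). The fallen included the kinases PRKDC (-0.82, adjusted p = 0.009) and ATR (-1.76, adjusted p = 0.031) and the deubiquitinases USP7 (-0.79, adjusted p = 0.017) and USP10 (-0.67, adjusted p = 0.012). ATR had 2.14 and 1.23 FPKM in the controls against 0.32 and 0.31 FPKM. The relatives of p53, TP63 and TP73, were at most 0.03 FPKM and were not tested.

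Of 21 cell cycle genes that are repressed downstream of p21, 2 rose and 6 fell (median -0.23), but 0 rose and 10 fell as deposited (limma) and 0 rose and 14 fell with equal totals. None was higher at an unadjusted p under 0.05 in either of these fits. Of all genes 6.80% rose and 23.4% fell by the adjusted test as deposited, and 5.87% and 35.4% with equal totals. With length offsets 1 of these cell cycle genes rose and 8 fell. CDC25A (-1.23), KIF23 (-1.24), CENPF (-1.14) and ECT2 (-0.50) were among the fallen, and CDK1 (0.58) and CDC20 (0.34) were the risen, as log2 fold changes, although CDC20 was at -0.14 when libraries were set to equal totals. Of 15 targets of ATF4, a stress factor that shares GDF15 and SESN2 with p53, 4 rose and 5 fell (median -0.22), against 3 and 7 as deposited. With length offsets 4 rose and 5 fell of 14 ATF4 targets tested. Over all genes 18.1% rose and 12.9% fell after TMM scaling, and 16.0% and 13.6% with length offsets. CHAC1 fell from 39.86 and 38.59 FPKM to 5.13 and 2.8 FPKM (log2 -3.00, SE 0.24, limma adjusted p = 0.0077), ATF4 itself fell by 0.63 and PSAT1 by 0.62, while DDIT3 (0.87), TRIB3 (0.96) and CEBPB (1.0) rose.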

How the data were processed

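RNA-Seq of 4 libraries (2 shGFP, 2 shLDHA) was analysed. The authors deposited FPKM rounded to 2 decimals under a label of counts, so limma stood in for a count test. The methods name Trim Galore, STAR, hg19 and HTSeq, the submitters' processing notes Trim Galore, HISAT2 and hg38, and which of these the table rests on, and the tool that scaled by length, are not given in the sources used here. Depth, estimated from the steps of low FPKM, was about 21400000, 22100000, 19000000 and 25700000 fragments, with 86.3% to 89.8% of the values used within 0.15 of a whole number. The libraries of a pair differed (Spearman's rho 0.983 and 0.966).

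Left out were 224 rows with no name (0.361% to 3.53% of the FPKM) and 27 whose name had become a date. FPKM were scaled by an unweighted trimmed mean of M values (30% of M and 5% of A trimmed) and log2(FPKM + 0.1) was tested with limma 3.58.1 in R 4.3.3, with a variance trend, 2 residual degrees of freedom and Benjamini-Hochberg adjustment over 13291 genes. Fold changes are on this log2 scale, which understates changes of low genes. An exact permutation test of 2 against 2 libraries cannot go under p = 0.333, so none is printed. Lengths, GC content and GRCh37 coordinates come from GENCODE version 44 by symbol. Length offsets remove a spline with 5 degrees of freedom. The members and lists were chosen with earlier results of these data known. Named are the 9 genes, LDHA, up to 4 risen and 4 fallen genes of lowest p in each pathway list, and all paralogs and partners, not every gene so taken being printed; the neighbours of MDM2 and the markers are named as well. With 4 libraries no genes were ranked by likeness of pattern. The fit was tested on simulated data in which few genes changed, balanced up and down. That setting cannot decide which scaling is right for these libraries.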

Additional observations from a re-analysis of the deposited data

How the results depend on the processing

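The 9 genes counted 2 risen and 2 fallen, the other targets 23 and 17, and all genes 2410 and 1709. As deposited these were 1 and 4, 8 and 24, and 904 and 3114, and with equal library totals (TPM) 1 and 5, 7 and 34, and 780 and 4700. With no filter on low values 22087 genes and 96 other targets were tested, against 13291 and 86. In that fit 1 of the 9 genes, 9 other targets and 1000 genes in all fell, and 14 other targets rose. With no variance trend 14 other targets rose, and with upper quartile scaling 15. Leaving out 1 library gave 0 to 2 risen and 0 to 3 fallen of the 9 genes, 0 to 23 risen and 0 to 16 fallen other targets, and 0 to 2729 risen and 0 to 1788 fallen genes in all, the 0 without shGFP library 1 or 2, and 11 fallen other targets without shLDHA library 2. With the replicate number as a block, 1 of the 9 genes fell (AEN) and 9 other targets fell; the labels do not say that the number pairs libraries, and with 2 pairs the correlation of deviations was 0.118. Log2 changes that turned sign were CDC20 -0.14 and CDKN1B -0.05 with TPM, GADD45B -0.22 as deposited, -0.00 with upper quartile scaling, -0.35 with TPM and -0.28 with length offsets, ZMAT2 -0.29, -0.07, -0.42 and -0.29 under the same and -0.18 without shLDHA library 2 (to 0.29 without shLDHA library 1), FDX1 -0.07 as deposited, -0.21 with TPM and -0.13 without shLDHA library 2 (to 0.64 without shLDHA library 1), and FDX2 -0.19 as deposited, -0.32 with TPM and -0.35 with length offsets (adjusted p = 0.025). The causes were not tested. TMM factors from all named rows, added after seeing the data, changed no call among the 9 genes. Low levels limit ZMAT3, SESN1 and TP53INP1, with about 68 to 360 fragments per library.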
